A study of Mus musculus with 6 samples.

Results

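The 47 genes described here encode the collagens that palatal tissue uses outside cartilage and the proteins that crosslink, fold or accompany them. They were chosen by name from the 55631 genes of the deposited table, with 31 collagen chains and 16 other genes among them, and all 47 symbols matched 1 gene ID each. RNA was sequenced from palatal shelves of mouse embryos at E14.5, the stage at which the shelves lift above the tongue and meet in a normal embryo. The KO group had 3 libraries from p130Cas fl/fl embryos with a CAG-Cre transgene, a Cre driven by a broadly active promoter, and the control group, titled WT, had 3 libraries from p130Cas fl/fl embryos with no Cre label. Both groups therefore carried the loxP-flanked alleles of Bcar1, the gene for p130Cas, an adaptor protein at integrin adhesion sites, and the study asked how its loss alters palatal transcripts in a mutant with cleft palate. The labels give neither litters nor pooling, and the p-values below therefore reflect only how these 6 samples varied, which may be technical in part.

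Collagens are trimers of chains with a glycine at each turn of the helix. Fibrillar types form the cables of mesenchymal matrix, type IV forms the sheet of basement membranes, and further types decorate fibrils, form beaded filaments or stay anchored in cell membranes. In the endoplasmic reticulum lysyl hydroxylases modify the chains and the chaperone Hsp47 holds the folded trimer, and outside the cell lysyl oxidases crosslink it. The mesenchyme of the palatal shelf is rich in types I and III together with fibronectin, tenascin-C and periostin, and this matrix contributes to the stiffness and swelling of the shelf as it lifts. p130Cas is a mechanosensor that is phosphorylated when integrins bind matrix such as fibronectin.

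Values are FPKM, fragments counted on a gene after scaling by its length and by the size of the library, so levels can be set side by side between genes. The number of reads behind them is unknown. FPKM summed to between 384979 and 424993 per library, between 21500 and 21869 genes were above 0, and 14714 genes entered the test, each averaging 1 FPKM or more. Bcar1 (ENSMUSG00000031955) stood at 1.69, 1.69 and 1.31 FPKM in KO shelves, against 1.80, 1.97 and 2.09 FPKM in control shelves, in the order of replicates 1 to 3 that is used throughout. Every KO library was below every control library, yet the difference in log2(FPKM + 1), -0.21 ± 0.11, did not pass the test (SE; limma, adjusted p = 1.00). A whole-gene value can hold exons outside the deleted part, so it is a weak check of the labels. All 12 markers of palatal mesenchyme were tested, with Osr2, Shox2, Msx1 and Prrx1 among them, and they summed to 674, 644 and 787 FPKM in KO libraries, against 718, 691 and 669 FPKM in control libraries. KO replicate 2 stood apart from the other libraries. It alone had Xist above 1 FPKM, and its haemoglobin gene Hba-a1 was the highest of any library at 12398 FPKM, against 4999.9 and 5996 FPKM in KO replicates 1 and 3 and 7937, 9593 and 5278 FPKM in control shelves. The member of smallest p, the member without overlap and the members that differed at an unadjusted p under 0.05 in a fit without KO replicate 2 are given with and without it.

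Type IV collagen genes are arranged in head-to-head pairs, and the palate used these pairs unequally, so the promoter windows of both genes of an abundant pair and of Col4a4, from a pair near 0, are shown beside those of abundant fibrillar chains. The sequences are RefSeq's for GRCm38.p6, from 250 bases before to 50 bases after an annotated start, and 32 of the 47 genes had a window, 36 windows in all. Capitals mark matches on either strand to the TATA motif TATAAA, to the CCAAT box or to the GC box GGGCGG, each searched as the letters given. The Col4a1 window is chr8:11312777-11313076 (minus strand), the Col4a2 window chr8:11312555-11312854 (plus strand), the Col4a4 window chr1:82586800-82587099 (minus strand), the Col1a2 window chr6:4505368-4505667 (plus strand) and the Col3a1 window chr1:45311288-45311587 (plus strand).
Col4a1: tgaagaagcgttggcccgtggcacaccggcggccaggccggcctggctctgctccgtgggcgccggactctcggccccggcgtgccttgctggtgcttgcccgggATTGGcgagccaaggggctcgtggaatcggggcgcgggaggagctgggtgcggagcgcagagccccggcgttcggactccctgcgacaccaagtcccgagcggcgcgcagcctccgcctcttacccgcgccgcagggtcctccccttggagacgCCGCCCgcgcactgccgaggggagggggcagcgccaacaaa
Col4a2: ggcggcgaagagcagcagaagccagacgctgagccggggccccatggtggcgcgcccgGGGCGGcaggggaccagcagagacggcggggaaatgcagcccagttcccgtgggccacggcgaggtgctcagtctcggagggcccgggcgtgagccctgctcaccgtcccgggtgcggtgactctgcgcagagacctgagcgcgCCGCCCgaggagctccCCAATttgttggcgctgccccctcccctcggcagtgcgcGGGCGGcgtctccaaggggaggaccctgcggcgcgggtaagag
Col4a4: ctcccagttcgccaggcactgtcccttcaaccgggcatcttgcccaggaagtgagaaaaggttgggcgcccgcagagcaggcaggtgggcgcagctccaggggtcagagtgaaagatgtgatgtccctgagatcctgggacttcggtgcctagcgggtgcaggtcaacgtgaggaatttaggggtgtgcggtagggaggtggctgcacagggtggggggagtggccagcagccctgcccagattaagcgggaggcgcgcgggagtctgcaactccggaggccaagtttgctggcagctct
Col1a2: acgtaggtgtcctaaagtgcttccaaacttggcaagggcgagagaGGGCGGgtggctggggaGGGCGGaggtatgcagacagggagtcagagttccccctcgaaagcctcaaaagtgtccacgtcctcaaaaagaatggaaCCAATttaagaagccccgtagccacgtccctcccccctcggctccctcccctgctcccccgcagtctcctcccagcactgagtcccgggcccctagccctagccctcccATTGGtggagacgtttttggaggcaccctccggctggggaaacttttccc
Col3a1: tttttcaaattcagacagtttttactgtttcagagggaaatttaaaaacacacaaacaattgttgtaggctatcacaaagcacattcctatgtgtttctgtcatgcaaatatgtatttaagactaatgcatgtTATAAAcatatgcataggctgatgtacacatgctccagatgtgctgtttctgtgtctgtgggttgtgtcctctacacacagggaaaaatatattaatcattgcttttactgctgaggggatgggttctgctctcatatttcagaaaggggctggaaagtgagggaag
The Col4a1 and Col4a2 windows share 78 bases, because the annotated starts of these genes lie 21 bases apart on opposite strands. Their windows held 37 and 33 CpG dinucleotides, and the Col4a4 window held 14. GGGCGG was found in 23 of the 36 windows and in 35.7% of all 32851 windows of this length. CCAAT was found in 11 of the 36 and in 37.4% of all windows, and TATAAA in 6 of the 36 and in 13.6% of all. The Tnc windows overlap each other and hold the same TATAAA and the same GGGCGG, counted in each window. Matches overlapped at 2 places in the 36 windows, in Col8a2 and Col6a2, each time GGGCGG with GGGCGG, and at 0 in the printed ones. Col3a1, with 0 CpG in its window, and Col1a2, with 13, were both among the most abundant transcripts of the shelf. A match is a description of letters and not of binding.

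Levels of the matrix genes differed widely. Of the 47 genes, 12 averaged 100 FPKM or more over the 6 libraries, 24 stood between 10 and 100 FPKM, 9 between 1 and 10 FPKM and 2 below 1 FPKM. Together they held 1.35%, 1.07% and 1.48% of the summed FPKM in KO libraries, against 1.40%, 1.13% and 1.36% in control libraries. Without the 10 highest genes that are no members, the shares were 1.47%, 1.22% and 1.63% in KO libraries, against 1.56%, 1.28% and 1.49% in control libraries. The group means of the first share, 1.30 ± 0.212% in KO and 1.30 ± 0.148% in control libraries (SD, n = 3 each), differed by less than either SD. In bulk tissue fewer cells of a type and less RNA per cell cannot be told apart.

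**Figure D1:**
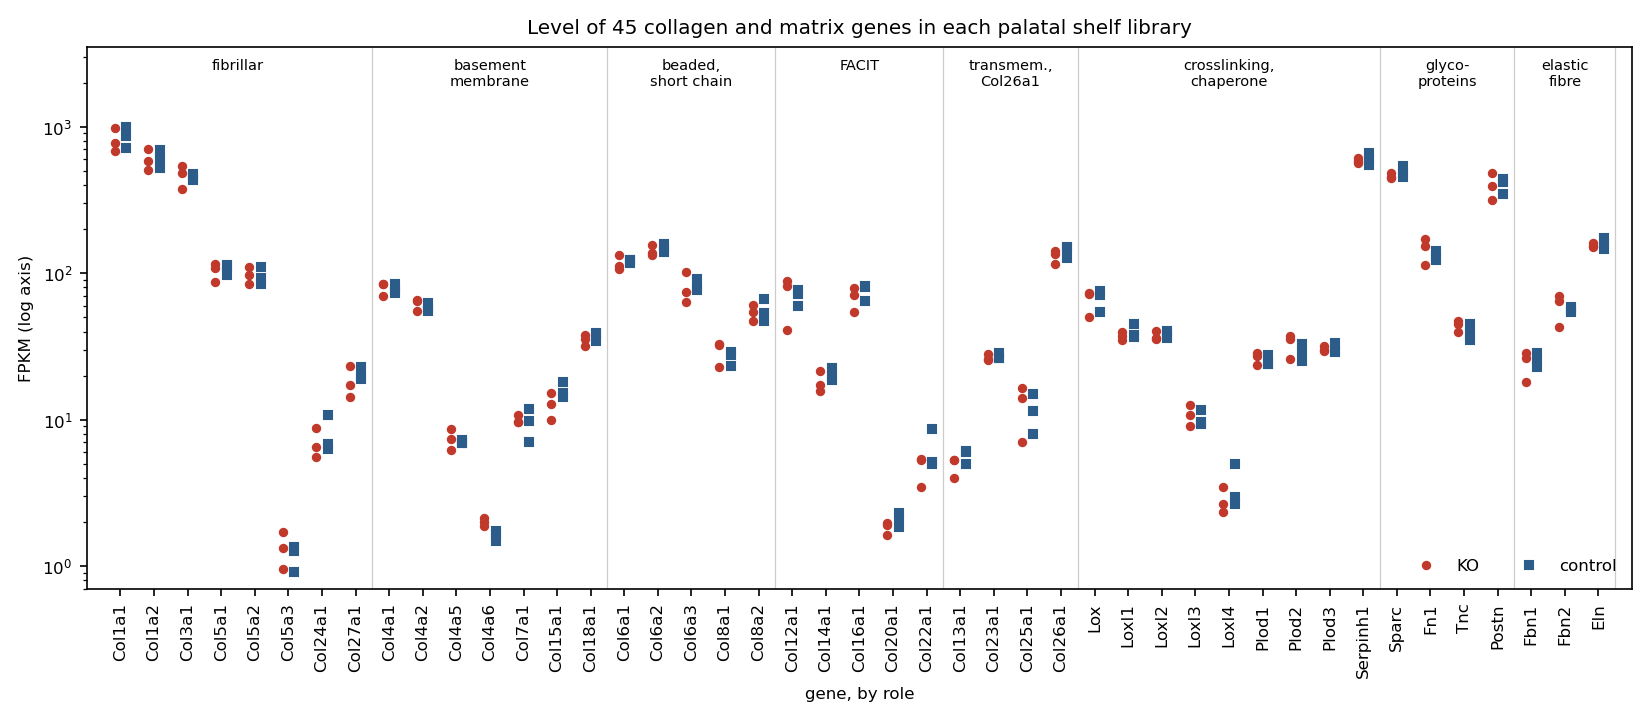
FPKM (log axis) of the 45 tested genes in each library, with genes ordered by role along the horizontal axis, KO libraries as circles and control libraries as squares beside them. Col1a1 is highest, at 678 to 974 FPKM in KO and 714 to 1002 FPKM in control libraries, and the groups interleave for 44 of the 45 genes, Col4a6 being the other.

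No collagen or matrix gene passed the test between genotypes. Of 45 tested members, 0 rose and 0 fell in limma at an adjusted p under 0.05 over all 14714 genes, where 0.326% of all tested genes rose and 0.00680% fell, or 0.333% in all. At an unadjusted p under 0.05 the count was also 0, where 2.09% of all tested genes were higher and 1.92% lower, or 4.01% in all, and no other setting that was run called a member. KO and control values did not overlap for 1 member, Col4a6, which was higher in KO, and for 9.06% of all tested genes, 3.27% higher and 5.79% lower. Fold changes are given as differences of log2(FPKM + 1), where the added 1 shrinks those of genes near 1 FPKM. They lay between -0.33 for Col22a1 and 0.19 for Col4a6, and every adjusted p was 1.00. There were 16 members above 0 and 29 below 0, with a median of -0.04. Over all tested genes 5968 were above and 8746 below 0, with a median of -0.02.

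The width of the intervals shows what these 6 libraries could resolve. The 95% interval of the difference lay within 0.58 on the log2 scale, or 1.5-fold in FPKM + 1, for 39 of the 45 members and for 91.3% of all tested genes. It lay within 1, or 2-fold in FPKM + 1, for all 45 and for 98.1% of all tested genes. For low genes such as Col5a3 the same interval allows a larger fold change in FPKM itself. The 6 members with wider intervals were Col24a1, Col15a1, Col12a1, Col22a1, Col25a1 and Loxl4, which reached more than 0.58 below 0, and Col25a1 reached more than 0.58 above 0 as well. The narrowest interval was that of Col23a1, from -0.18 to 0.12. A p that misses the threshold does not show that the genotypes are alike, and the interval gives the differences that remain compatible with each gene's spread.

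**Figure D2:**
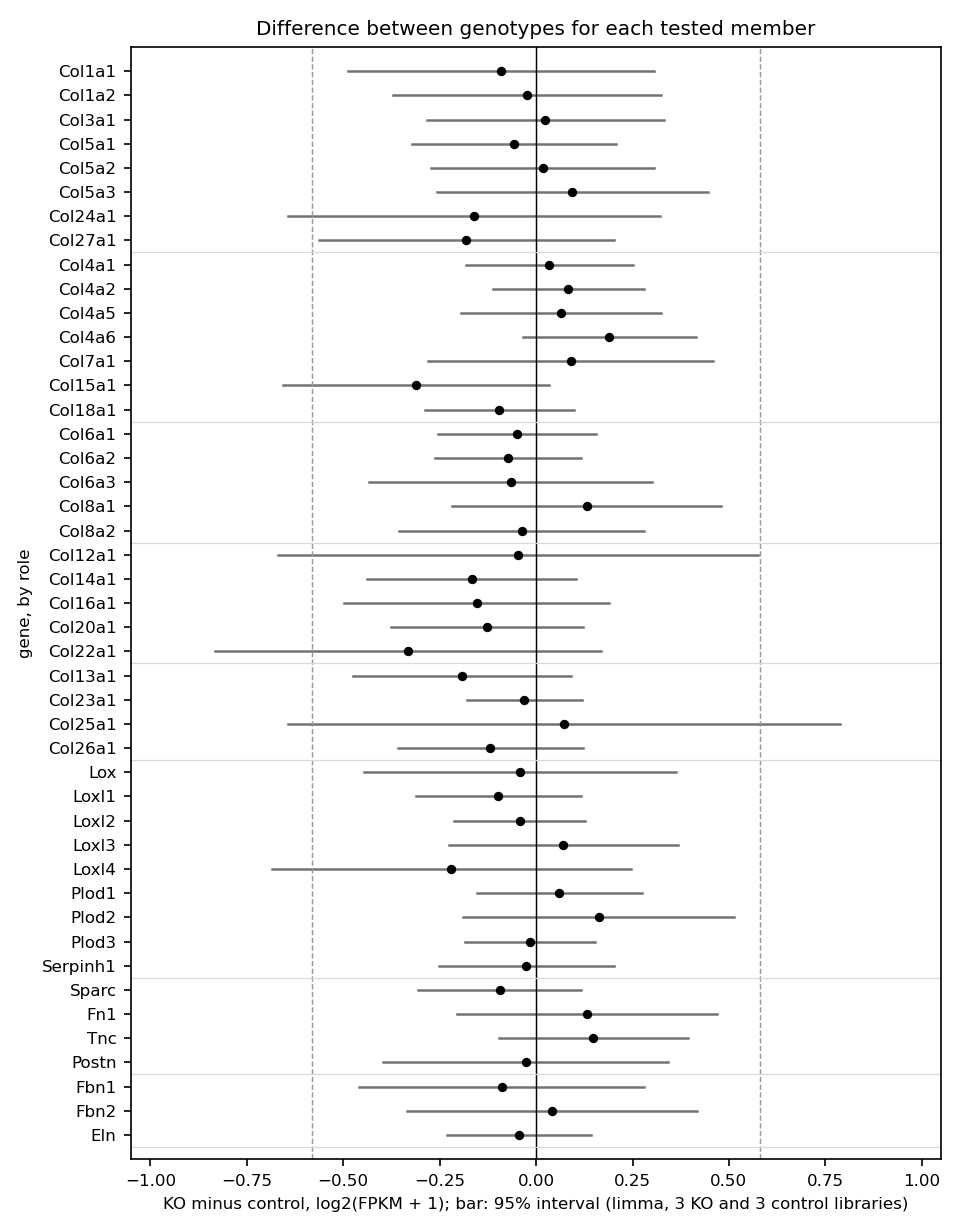
Difference of KO minus control on the log2(FPKM + 1) scale for the 45 tested genes, from top to bottom by role, with points for the estimate, bars for the 95% interval from limma (3 KO and 3 control libraries) and dashed lines at 0.58 either side of 0. Every bar crosses 0, from Col22a1 at -0.33 to Col4a6 at 0.19.

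Among fibrillar collagens, which give the mesenchyme its tensile cables, the chains of type I were the most abundant transcripts of the list. Col1a1 (ENSMUSG00000001506), the alpha1 chain, stood at 773, 678 and 974 FPKM in KO shelves, against 1002, 714 and 862 FPKM in control shelves. Its lowest values were KO replicate 2 and control replicate 2, and the groups overlapped, with a difference of -0.09 ± 0.17 (SE; limma, adjusted p = 1.00). By mean FPKM it ranked 46th among all genes. Col1a2 (ENSMUSG00000029661), the alpha2 chain, stood at 583, 509 and 706 FPKM in KO shelves, against 693, 524 and 607 FPKM in control shelves, with a difference of -0.02 ± 0.15. The same libraries were lowest for both chains. Col3a1, which forms fibrils with type I in soft tissue, averaged 466 ± 81.7 FPKM in KO and 454 ± 22.4 FPKM in control libraries (SD, n = 3 each). Col5a1 and Col5a2, type V chains that set fibril diameter, averaged 104 ± 14.8 FPKM in KO and 107 ± 8.35 FPKM in control libraries and 97.3 ± 12.97 FPKM in KO and 96.2 ± 13.1 FPKM in control libraries (SD, n = 3 each), and each of these pairs of means differed by less than 1 SD of the KO values.

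The minor fibrillar chains were lower by 1 to 3 orders of magnitude. Col5a3, a further type V chain, stood at 1.33, 0.958 and 1.71 FPKM in KO shelves, against 0.912, 1.27 and 1.34 FPKM in control shelves, close to the limit of the test, and the groups overlapped. Col24a1, a chain reported in developing bone, stood at 5.53, 6.52 and 8.84 FPKM in KO shelves, against 10.7, 6.85 and 6.36 FPKM in control shelves, with its highest value in control replicate 1 and its lowest in KO replicate 1. Col27a1, a fibrillar chain known from developing cartilage, stood at 23.4, 14.2 and 17.3 FPKM in KO shelves, against 19.6, 19.0 and 23.0 FPKM in control shelves. It was highest in KO replicate 1 and control replicate 3 and lowest in KO replicate 2, and its difference was -0.18 ± 0.16 (SE; limma, adjusted p = 1.00).

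Basement membrane collagens differed by family branch more than by genotype. Col4a1 (ENSMUSG00000031502) and Col4a2 (ENSMUSG00000031503), which form the network present under nearly every epithelium and around vessels, were the abundant pair. Col4a1 stood at 84.9, 70.1 and 84.4 FPKM in KO shelves, against 76.5, 72.9 and 83.9 FPKM in control shelves. Col4a2 stood at 64.9, 55.6 and 65.4 FPKM in KO shelves, against 56.9, 55.4 and 62.7 FPKM in control shelves, and both genes had overlapping groups with differences of 0.03 ± 0.09 and 0.08 ± 0.08 (SE). Col4a3 was listed at 0 in every library and Col4a4 in every library except KO replicate 3, at 0.118 FPKM. These chains belong to the glomerular and lung networks of mature tissue. Their starts lie 72 bases apart on opposite strands, and neither was tested.

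Col4a6 (ENSMUSG00000031273), which encodes a chain of the X-linked pair found in epithelial and smooth muscle basement membranes, had the only groups without overlap. It stood at 1.89, 2.12 and 2.01 FPKM in KO shelves, against 1.66, 1.75 and 1.497 FPKM in control shelves. All KO values lay above all control values, and the difference of 0.19 ± 0.10 (SE) had an interval from -0.03 to 0.41 (limma, adjusted p = 1.00). Its pair partner Col4a5, with a start 1309 bases away on the opposite strand, averaged 7.45 ± 1.23 FPKM in KO and 7.02 ± 0.190 FPKM in control libraries (SD, n = 3 each), and the groups overlapped. Col4a5 exceeded Col4a6 in every library, with ratios of means of 3.71 in KO and 4.28 in control libraries. KO replicate 2, the library with Xist, held the highest Col4a6 value and the lowest Col4a5 value, and embryo sex and this library cannot be told apart. Without KO replicate 2 the Col4a6 difference was 0.16 ± 0.11 (SE; limma, unadjusted p = 0.183, adjusted p = 0.695). The remaining KO values still lay above all control values.

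Col15a1 and Col18a1 encode multiplexins, collagens that link basement membranes to the matrix around vessels. Col15a1 had the smallest p of any member, at 12.9, 9.98 and 15.2 FPKM in KO shelves, against 15.1, 14.3 and 18.1 FPKM in control shelves. KO replicates 1 and 2 were below every control and KO replicate 3 was inside the control range, so the groups overlapped, and the difference was -0.31 ± 0.15 (SE; limma, unadjusted p = 0.0698, adjusted p = 1.00). Without KO replicate 2 it was -0.16 ± 0.12 (SE; limma, unadjusted p = 0.202, adjusted p = 0.697). Endothelial markers were measured beside it, because Col15a1 is expressed in capillary walls. The median deviation of 12 endothelial markers from the control mean, on the log2 scale, was -0.13, -0.39 and -0.09 in KO libraries, against -0.05, -0.04 and 0.12 in control libraries. All 12 endothelial markers had a fold change below 0. So did all 11 tested skeletal muscle markers and 8746 of all 14714 tested genes, while all 11 tested leukocyte markers were above 0. Of the endothelial markers 4 had an unadjusted p under 0.05 (1.92% of all tested genes were lower by that rule), and 0 passed over all genes in limma. The summed level of the endothelial markers was 163, 134 and 162 FPKM in KO libraries, against 168, 175 and 189.6 FPKM in control libraries. Their median fold change was -0.18 with all libraries and -0.08 without KO replicate 2, where 8 were below 0 and 4 had an unadjusted p under 0.05 (4.09% of all tested genes were lower by that rule). Col18a1, whose fragment endostatin inhibits vessel growth, stood at 37.9, 35.4 and 31.8 FPKM in KO shelves, against 34.6, 39.2 and 38.6 FPKM in control shelves. Its lowest value was in KO replicate 3, and the part of vessel content in either gene was not tested. Col7a1, which forms the anchoring fibrils that tie epithelium to the matrix below it, averaged 10.05 ± 0.687 FPKM in KO and 9.55 ± 2.39 FPKM in control libraries (SD, n = 3 each).

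Beaded filament and short chain collagens included abundant chains. Col6a1 (ENSMUSG00000001119) stood at 112, 107 and 133 FPKM in KO shelves, against 123, 117 and 123 FPKM in control shelves, and Col6a2 (ENSMUSG00000020241), a further chain of the same heterotrimer, at 137, 133 and 156 FPKM in KO shelves, against 150.3, 140.0 and 157 FPKM in control shelves. Both were lowest in KO replicate 2, with differences of -0.05 ± 0.09 and -0.07 ± 0.08 (SE). Col6a3, the third chain, averaged 79.9 ± 19.3 FPKM in KO and 82.4 ± 7.48 FPKM in control libraries. Col8a1, a short chain collagen of vessel walls and corneal membrane, stood at 32.5, 22.8 and 33.1 FPKM in KO shelves, against 27.7, 23.1 and 28.9 FPKM in control shelves, with KO replicates 1 and 3 above every control and KO replicate 2 below every control. Without KO replicate 2 its difference was 0.30 ± 0.10 (SE; limma, unadjusted p = 0.0179, adjusted p = 0.686). Col8a2 averaged 54.0 ± 6.77 FPKM in KO and 55.8 ± 9.94 FPKM in control libraries (SD, n = 3 each).

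The ratio between chains of one molecule is independent of how a library was scaled, since both chains come from the same library. The Col1a1 to Col1a2 ratio was 1.33, 1.33 and 1.38 in KO libraries, against 1.45, 1.36 and 1.42 in control libraries. The KO values lay below control replicates 1 and 3, and KO replicate 3 lay above control replicate 2 (exact two-sided permutation test, p = 0.2, adjusted p = 0.3 over the 3 ratios). The Col4a1 to Col4a2 ratio was 1.31, 1.26 and 1.29 in KO libraries, against 1.35, 1.31 and 1.34 in control libraries. All KO ratios were below all control ratios (exact two-sided permutation test, p = 0.1, adjusted p = 0.3), and 0.1 is the smallest p that the 20 assignments of 6 libraries allow. The difference was small, 1.29 ± 0.0232 in KO and 1.33 ± 0.0158 in control libraries (SD, n = 3 each). The Col6a1 to Col6a2 ratio averaged 0.824 ± 0.0257 in KO and 0.811 ± 0.0273 in control libraries (SD, n = 3 each; exact two-sided permutation test, p = 0.6, adjusted p = 0.6). Across libraries in which Col1a1 itself ran from 678 to 1002 FPKM, its ratio to Col1a2 stayed between 1.33 and 1.45.

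**Figure D3:**
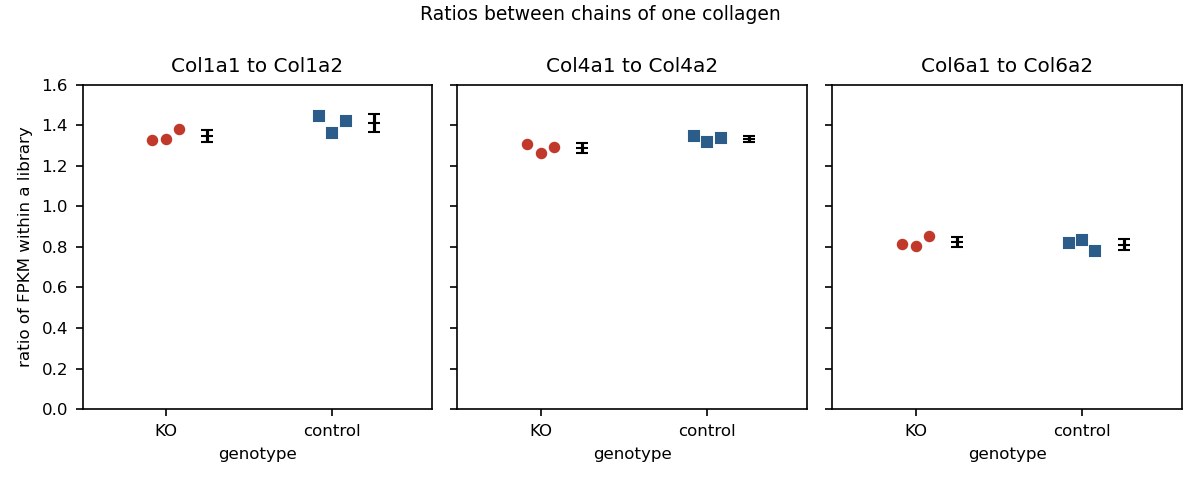
Ratio of FPKM between chains of type I, type IV and type VI collagen within each library, KO at the left and control at the right of each panel, with points for libraries and bars for the mean and SD (n = 3 each). The KO and control ratios overlap for types I and VI, and for type IV they run from 1.26 to 1.31 in KO and from 1.31 to 1.35 in control libraries without overlap.

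All FACIT collagens, which coat the surface of fibrils, had fold changes below 0, as did 8746 of all 14714 tested genes. No FACIT collagen passed. Col12a1, a FACIT of tissue under tension, stood at 82.1, 41.0 and 88.5 FPKM in KO shelves, against 72.2, 59.5 and 76.7 FPKM in control shelves. The KO group was split, with replicates 1 and 3 above every control and replicate 2 below every control. Its difference was -0.05 ± 0.27 (SE) with all libraries, and 0.30 ± 0.11 (SE; limma, unadjusted p = 0.0299, adjusted p = 0.686) without KO replicate 2. Col14a1, which is found in tendon and skin, stood at 21.3, 15.8 and 17.1 FPKM in KO shelves, against 18.8, 19.7 and 22.4 FPKM in control shelves, and Col16a1 at 71.4, 54.1 and 79.2 FPKM in KO shelves, against 81.4, 65.0 and 80.1 FPKM in control shelves. Both overlapped, with differences of -0.17 ± 0.12 and -0.15 ± 0.15 (SE; limma, adjusted p = 1.00 each). Col20a1 stood at 1.98, 1.63 and 1.91 FPKM in KO shelves, against 2.14, 1.84 and 2.32 FPKM in control shelves. Col22a1, a FACIT of muscle-tendon junctions, had the lowest fold change of the list and stood at 3.45, 5.30 and 5.36 FPKM in KO shelves, against 8.67, 5.15 and 4.99 FPKM in control shelves. Its values outside control replicate 1 and KO replicate 1 lay between 4.99 and 5.36 FPKM, and the difference was -0.33 ± 0.22 (SE; limma, adjusted p = 1.00). Without KO replicate 1 it was -0.16, without control replicate 1 it was -0.11, and in the fit without KO replicate 1 Col27a1 stood lower, at -0.36.

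Transmembrane collagens are anchored in the plasma membrane and shed into the matrix. Col13a1, which acts at adhesion sites and at the nerve-muscle synapse, stood at 4.01, 5.32 and 5.27 FPKM in KO shelves, against 6.02, 6.08 and 4.96 FPKM in control shelves, lowest in KO replicate 1. Col23a1 was the steadiest member, with a highest library only 1.11 times its lowest, and stood at 26.1, 25.7 and 28.1 FPKM in KO shelves, against 28.6, 26.5 and 26.6 FPKM in control shelves. Col25a1, which motor nerves need to enter muscle, averaged 12.5 ± 4.90 FPKM in KO and 11.5 ± 3.51 FPKM in control libraries (SD, n = 3 each), lowest in KO replicate 2 and control replicate 2. Col26a1, a secreted collagen with an EMI domain, was the most abundant of these at 134, 115 and 142 FPKM in KO shelves, against 126, 148 and 150.3 FPKM in control shelves. KO replicate 2 and control replicate 1 were its lowest libraries, and the difference was -0.12 ± 0.10 (SE).

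The enzymes that crosslink collagen were expressed in every library. Lox (ENSMUSG00000024529), the lysyl oxidase that acts on type I collagen and elastin, stood at 72.7, 49.9 and 73.8 FPKM in KO shelves, against 76.0, 54.6 and 70.5 FPKM in control shelves. As for Col1a1, its lowest values were KO replicate 2 and control replicate 2, and its difference was -0.04 ± 0.17 (SE; limma, adjusted p = 1.00). Loxl1, which acts on elastic fibres, stood at 37.1, 34.8 and 39.9 FPKM in KO shelves, against 38.1, 36.8 and 45.2 FPKM in control shelves. Loxl4 stood at 2.35, 2.64 and 3.49 FPKM in KO shelves, against 4.98, 2.97 and 2.65 FPKM in control shelves, highest in control replicate 1. Loxl2, which acts on type IV collagen, averaged 37.3 ± 2.71 FPKM in KO and 38.4 ± 2.03 FPKM in control libraries, and Loxl3 averaged 10.8 ± 1.79 FPKM in KO and 10.2 ± 1.22 FPKM in control libraries (SD, n = 3 each). Exons of Htra2 on the other strand cover 11.6% of the Loxl3 exon bases, and the strand setting of the counting is not given in the sources used here.

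Lysyl hydroxylases act before secretion. Plod2, which modifies the telopeptides at the ends of the collagen helix, stood at 37.2, 25.8 and 35.5 FPKM in KO shelves, against 33.1, 25.1 and 28.9 FPKM in control shelves. KO replicates 1 and 3 were above every control and KO replicate 2 was inside the control range. The difference was 0.16 ± 0.15 (SE), and 0.32 ± 0.11 (SE; limma, unadjusted p = 0.0225, adjusted p = 0.686) without KO replicate 2. Plod1 and Plod3 averaged 26.5 ± 2.62 FPKM in KO and 25.3 ± 2.10 FPKM in control libraries and 30.2 ± 1.23 FPKM in KO and 30.6 ± 2.40 FPKM in control libraries (SD, n = 3 each), and 11.9% of the exon bases of Plod3 are shared with other annotated genes. Serpinh1 (ENSMUSG00000070436), which encodes Hsp47, was as abundant as the collagens it folds, at 569.6, 586 and 614 FPKM in KO shelves, against 599, 545 and 663 FPKM in control shelves. Its groups overlapped with a difference of -0.03 ± 0.10 (SE), and its values did not follow Col1a1, since KO replicate 2 was above KO replicate 1.

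The matrix glycoproteins bind cells and collagen together. Sparc, a collagen-binding protein of bone and connective tissue, stood at 456, 445 and 482 FPKM in KO shelves, against 487, 454 and 539 FPKM in control shelves. Postn, or periostin, which promotes crosslinking of collagen, stood at 395, 316 and 479.7 FPKM in KO shelves, against 437, 348 and 417 FPKM in control shelves, with the order of libraries seen for Col1a2 at both ends, highest in KO replicate 3 and lowest in KO replicate 2. Their differences were -0.09 ± 0.09 and -0.03 ± 0.16 (SE; limma, adjusted p = 1.00 each). Fn1 (ENSMUSG00000026193), or fibronectin, the integrin ligand upstream of p130Cas, stood at 153, 113 and 170.3 FPKM in KO shelves, against 143, 126 and 124 FPKM in control shelves. KO replicates 1 and 3 were above every control and KO replicate 2 was below every control. Its difference was 0.13 ± 0.15 (SE; limma, adjusted p = 1.00) with all libraries and 0.30 ± 0.09 (SE; limma, unadjusted p = 0.0114, adjusted p = 0.657) without KO replicate 2. Tnc, or tenascin-C, an anti-adhesive glycoprotein of developing mesenchyme, stood at 39.7, 47.5 and 45.3 FPKM in KO shelves, against 45.2, 35.1 and 39.2 FPKM in control shelves. It was one of 2 members, with Col4a6, that were highest in KO replicate 2, and its difference was 0.15 ± 0.11 (SE).

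Elastic fibres consist of elastin on a scaffold of fibrillin microfibrils. Fbn1 stood at 26.2, 18.2 and 28.4 FPKM in KO shelves, against 25.5, 22.9 and 28.3 FPKM in control shelves, and 20.1% of its exon bases are shared with another annotated gene on the other strand. Fbn2, the fibrillin that dominates in embryos, stood at 69.5, 43.2 and 65.0 FPKM in KO shelves, against 56.1, 54.3 and 58.8 FPKM in control shelves, and Eln, or elastin, at 153, 149.8 and 162 FPKM in KO shelves, against 147, 159 and 175 FPKM in control shelves. The fibrillins were lowest in KO replicate 2, Eln was lowest in control replicate 1, and the differences were -0.09 ± 0.16, 0.04 ± 0.16 and -0.04 ± 0.08 (SE; limma, adjusted p = 1.00 each). Without KO replicate 2 the difference of Fbn2 was 0.25 ± 0.07 (SE; limma, unadjusted p = 0.00734, adjusted p = 0.5997).

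The members moved together between libraries of one genotype more than they differed between genotypes. KO replicate 2 held the lowest value for 30 of the 45 tested members, or 66.7%, and for 28.4% of all tested genes. It stood below all control libraries for 32 members, against 36.5% of all tested genes. It stood below control replicate 2 for 37 members, a count that was not made over all genes. Both KO replicate 2 and control replicate 2 were among the lowest 2 libraries for 21 members, against 11.1% of all tested genes. KO replicate 3 was the highest library for 15 members, or 33.3%, against 21.7% of all tested genes. These shares are descriptions of 6 libraries with no test. The median deviation of tested members from the control mean was 0.02, -0.19 and 0.10 in KO libraries, against 0.02, -0.10 and 0.07 in control libraries, so the spread inside the KO group was wider than the distance between the groups.

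**Figure D4:**
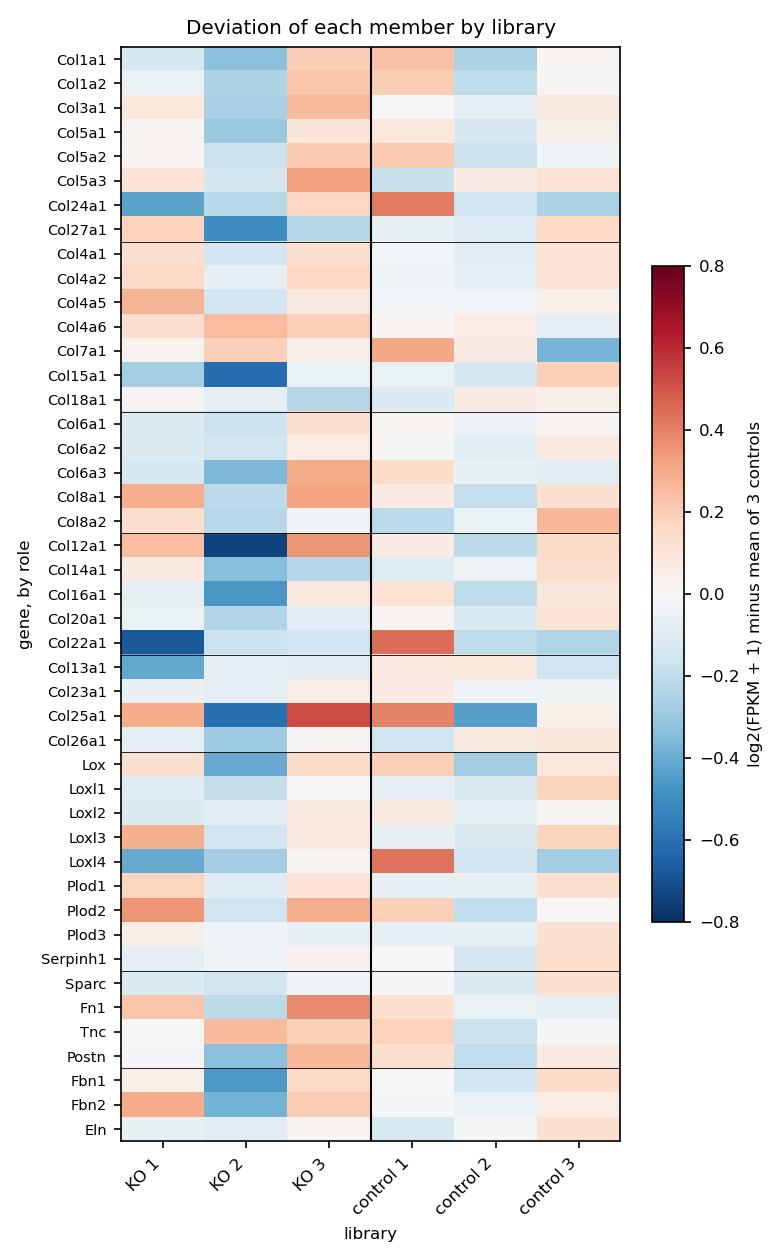
Deviation of each tested gene from the mean of the 3 control libraries on the log2(FPKM + 1) scale, with libraries across (KO at the left of the line, control at the right), genes down by role, and colour from blue (lower) to red (higher). KO replicate 2 is blue for most genes and lowest for 30 of 45, and KO replicate 3 is highest for 15 of 45.

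By role, the median deviation of fibrillar collagens was 0.02, -0.25 and 0.20 in KO libraries, against 0.14, -0.15 and 0.03 in control libraries. For FACIT collagens it was -0.05, -0.34 and -0.09 in KO libraries, against 0.06, -0.21 and 0.10 in control libraries. Basement membrane collagens varied least, at 0.13, -0.08 and 0.07 in KO libraries, against -0.02, -0.02 and 0.04 in control libraries. Without KO replicate 2 the median difference over the 45 members turned to 0.05, with 27 members above 0, beside a median of -0.01 over all tested genes. In that fit Col8a1, Col12a1, Plod2, Fn1 and Fbn2 were higher at an unadjusted p under 0.05, or 11.1% of members, where 3.00% of all tested genes were higher by that rule, and 0 passed over all genes. Leaving out another library gave other members. Without KO replicate 3 the members' median was -0.13, with 11 members above 0, beside a median of -0.03 over all tested genes. Col15a1 and Col6a3 were lower at that level, where 2.02% of all tested genes were. Without KO replicate 1 Col27a1 and Col14a1 were lower, where 1.43% were, and without control replicate 1 Tnc was higher, where 2.09% were. Leaving out control replicate 2 or 3 gave 0 members at that level. Adding embryo sex to the model gave the same median, since KO replicate 2 was the sole library with Xist above 1 FPKM, and sex and this library cannot be told apart.

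Other measures stood apart in KO replicate 2 as well, and 1 of them in control replicate 2. The 10 highest genes outside the list took 12.9% of FPKM in KO replicate 2 and 11.6% in control replicate 2, against 8.15% and 8.90% in KO replicates 1 and 3 and 10.3% and 8.43% in control replicates 1 and 3. Epithelial markers, with Krt14 and Epcam among 12, had median deviations of 0.00, 0.39 and -0.34 in KO libraries, against 0.05, 0.07 and -0.14 in control libraries, and summed to 498, 685 and 387 FPKM in KO libraries, against 504, 576 and 453 FPKM in control libraries. Leukocyte markers had median deviations of 0.44, 0.76 and 0.31 in KO libraries, against -0.09, -0.07 and 0.15 in control libraries, and summed to 114, 141 and 101 FPKM in KO libraries, against 70.7, 77.4 and 89.0 FPKM in control libraries. Markers of palatal mesenchyme had median deviations of 0.04, 0.01 and 0.23 in KO libraries, against 0.08, -0.09 and -0.10 in control libraries. Their summed level was lowest in KO replicate 2, at 644 FPKM. The part of tissue composition in the matrix values was not tested.

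A few members had the library order of skeletal marker lists, which was seen after their values were known. Col27a1 had its highest values in KO replicate 1 and control replicate 3 and its lowest in KO replicates 2 and 3. The 13 tested cartilage genes, such as Col2a1 and Acan, had median deviations of 0.92, -1.40 and -1.69 in KO libraries, against -0.21, -0.40 and 0.67 in control libraries, and summed to 806, 188 and 188 FPKM in KO libraries, against 387, 328 and 669 FPKM in control libraries. Matn1, a cartilage matrix protein, stood at 46.7, 3.88 and 0.959 FPKM in KO shelves, against 17.7, 17.8 and 41.6 FPKM in control shelves, and of the cartilage genes only Col10a1 was not tested. Col27a1 and the cartilage median shared the highest 2 and lowest 2 libraries, as did 11 of the 13 cartilage genes, all but Col11a1 and Sox9. Among the 45 tested members 2 had this order, Col27a1 and Col14a1, and the share of all tested genes with it was not counted. Inside the KO group the highest library was 48.7 times the lowest for Matn1 and 1.65 times the lowest for Col27a1.

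Of the 45 tested members 5, or 11.1%, had their lowest values in KO replicate 1, against 20.7% of all tested genes. The 5 were Col24a1, Col22a1, Col13a1, Loxl2 and Loxl4. Among these Col24a1, Col22a1 and Loxl4 were highest in control replicate 1, Col13a1 in control replicate 2 and Loxl2 in KO replicate 3. Members highest in control replicate 1 numbered 8 of 45, or 17.8%, against 16.9% of all tested genes. The share of all tested genes lowest in KO replicate 1 and highest in control replicate 1 was not counted. Osteoblast genes, 7 of 11 tested, had median deviations of -0.49, -0.04 and 0.07 in KO libraries, against 0.23, -0.06 and -0.17 in control libraries, also lowest in KO replicate 1 and highest in control replicate 1. Their summed level was 296, 525 and 525 FPKM in KO libraries, against 675, 428 and 408 FPKM in control libraries. Ifitm5, a membrane protein of osteoblasts, stood at 17.2, 43.3 and 32.5 FPKM in KO shelves, against 54.0, 33.1 and 35.3 FPKM in control shelves. Alpl, the phosphatase of mineralising cells, stood at 62.0, 92.7 and 83.9 FPKM in KO shelves, against 98.9, 83.7 and 81.2 FPKM in control shelves. These genes, with Sp7, Ibsp and Phex, were the 5 of 7 that were lowest in KO replicate 1 and highest in control replicate 1. The other tested osteoblast genes had another order. Spp1, or osteopontin, stood at 7.21, 4.21 and 4.77 FPKM in KO shelves, against 4.22, 3.23 and 6.20 FPKM in control shelves, highest in KO replicate 1. Runx2, the transcription factor of early osteoblasts, stood at 26.3, 24.5 and 34.3 FPKM in KO shelves, against 32.3, 28.8 and 27.4 FPKM in control shelves, lowest in KO replicate 2. Col1a1, a bone collagen as well, was highest in control replicate 1 like the 5 osteoblast genes. Its lowest value was in KO replicate 2, so it shared their order at 1 end only. Skeletal muscle markers, listed because Col22a1 and Col25a1 are known from muscle, had median deviations of -0.43, 0.01 and -0.32 in KO libraries, against -0.42, 0.10 and 0.32 in control libraries. The amount of bone or cartilage dissected with a shelf was not tested as a source of these values.

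**Figure D5:**
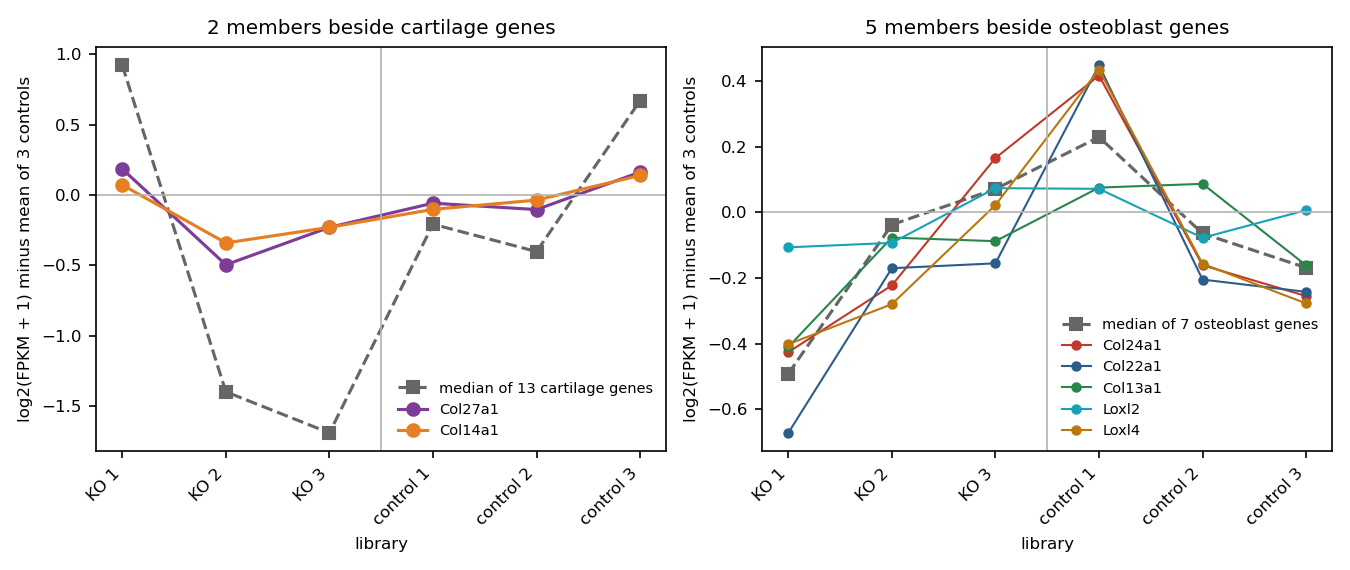
Deviation from the mean of the 3 control libraries on the log2(FPKM + 1) scale in each library, KO at the left and control at the right of the vertical line, with solid lines for single genes and dashed lines for the median of a marker list. Col27a1, Col14a1 and the median of 13 cartilage genes are highest in KO replicate 1 and control replicate 3, and Col24a1, Col22a1, Col13a1, Loxl2, Loxl4 and the median of 7 osteoblast genes are lowest in KO replicate 1.

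Genes that make, process or receive collagen showed the same absence of calls. None of the 18 tested enzymes and transport factors of collagen synthesis passed in limma over all genes, and their median fold change was -0.09. Among them 1 had an unadjusted p under 0.05, as did 4.01% of all tested genes. That gene was Fkbp10, a prolyl isomerase of the endoplasmic reticulum, at 75.9, 77.6 and 78.3 FPKM in KO shelves, against 85.2, 82.1 and 91.0 FPKM in control shelves. Its groups did not overlap, and 5.79% of all tested genes were likewise lower in KO without overlap. The difference was -0.15 ± 0.06 (SE; limma, unadjusted p = 0.0379, adjusted p = 1.00). P4ha2, a prolyl hydroxylase subunit, had an overlapping difference of 0.18 ± 0.08 (SE; limma, adjusted p = 1.00). Of 16 tested genes for procollagen processing and fibril assembly, 0 passed in limma and 0 had an unadjusted p under 0.05, with a median of -0.06. Pcolce2, an enhancer of procollagen cleavage, averaged 2.33 ± 0.398 FPKM in KO and 2.90 ± 0.491 FPKM in control libraries, and Prelp, a leucine-rich proteoglycan, 3.18 ± 1.62 FPKM in KO and 4.42 ± 1.21 FPKM in control libraries (SD, n = 3 each).

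Of 8 tested collagen receptors, 0 passed in limma and 0 had an unadjusted p under 0.05, with a median of 0.02. Itga11, a subunit of a fibrillar collagen integrin, stood at 3.27, 3.81 and 3.39 FPKM in KO shelves, against 4.12, 3.91 and 4.19 FPKM in control shelves. Its groups did not overlap, as for 5.79% of all tested genes that were lower in KO. Itga10 averaged 5.49 ± 0.501 FPKM in KO and 6.64 ± 1.56 FPKM in control libraries (SD, n = 3 each). Of 16 tested laminins and basement membrane partners, 0 passed and 0 had an unadjusted p under 0.05, with a median of 0.04. Lama3 averaged 3.95 ± 1.12 FPKM in KO and 4.74 ± 0.273 FPKM in control libraries, and Agrn, or agrin, 67.1 ± 9.70 FPKM in KO and 58.1 ± 8.41 FPKM in control libraries (SD, n = 3 each). Of 16 tested partners of elastic fibres, 0 passed and the median was -0.07. Among them 1 had an unadjusted p under 0.05, as did 4.01% of all tested genes. That gene was Adamtsl2, a microfibril-binding protein, at 0.910, 0.799 and 0.939 FPKM in KO shelves, against 1.16, 1.38 and 1.84 FPKM in control shelves (limma, unadjusted p = 0.0203, adjusted p = 1.00). Mfap2, a microfibril glycoprotein, stood at 265, 248 and 260.0 FPKM in KO shelves, against 268, 283 and 323 FPKM in control shelves. The groups did not overlap for Adamtsl2 or Mfap2, 2 of the 16 tested, beside 5.79% of all tested genes lower without overlap.

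Among the remaining marker lists, 0 genes passed over all genes in limma. At an unadjusted p under 0.05, 9 of 11 tested leukocyte markers were higher, where 2.09% of all tested genes were. By the same rule 1 of 11 skeletal muscle markers and 1 of 12 neuron and glia markers were lower, where 1.92% of all tested genes were. Pericyte and smooth muscle markers (8 tested), tendon and perichondrium markers (5 tested), epithelial markers, palatal mesenchyme markers, cartilage genes and osteoblast genes had 0 at that level. Tendon and perichondrium markers had median deviations of 0.01, -0.33 and 0.14 in KO libraries, against -0.08, -0.07 and -0.02 in control libraries, those of pericytes and smooth muscle -0.06, -0.22 and 0.07 in KO libraries, against -0.04, -0.01 and 0.03 in control libraries, and those of neurons and glia 0.28, -0.28 and -0.46 in KO libraries, against -0.18, 0.00 and 0.25 in control libraries. Without KO replicate 2, 0 genes of any of these lists passed in limma as well. In that fit 8 of 11 leukocyte markers and 4 of 16 laminins and basement membrane partners were higher at an unadjusted p under 0.05, where 3.00% of all tested genes were. So were 2 of 5 tendon and perichondrium markers and 2 of 12 neuron and glia markers. The palatal mesenchyme, procollagen processing and elastic fibre lists had 1 higher each. Lower by that rule were 4 of 12 endothelial and 2 of 12 epithelial markers, where 4.09% of all tested genes were. The osteoblast, skeletal muscle, procollagen processing, collagen receptor and laminin lists had 1 lower each. The medians of procollagen processing genes and elastic fibre partners were 0.07 and 0.02.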

How the data were processed

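Libraries were assigned to genotypes by their titles and each column of the table to the library its label names. The authors deposited FPKM for 55631 mouse gene IDs, a unit taken from the name of their table, and the submitters' processing notes list DESeq2 version 1.5.2 and the build mm10. The sources used here name neither the aligner and counter nor the strand setting. Read numbers could not be recovered from the low values, and the depth is unknown.

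Symbols and coordinates came from GENCODE M21 on GRCm38 by gene ID (50824 matched). No 2 libraries were identical, and their correlations across tested genes lay between 0.982 and 0.993. The fit used log2(FPKM + 1) in limma version 3.58.1 in R version 4.3.3, with genotype as the only term and eBayes with a trend, over the 14714 genes averaging 1 FPKM or more. Tests were two-sided with Benjamini-Hochberg adjustment over all tested genes at 0.05, and the fit was tested on simulated data. Of the 47 members, 45 passed the filter. The members, roles and marker lists were chosen with earlier results of these data known. Values in every library are given for the 3 members of smallest p and the 2 of highest level in each of 8 roles and for the chains of the 3 ratios, 33 in all, and up to 2 genes of smallest p are named from each other list.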

Additional observations from a re-analysis of the deposited data

How the results depend on the processing

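Under each of the 19 alternatives 0 members were called. The count over all genes, 49, was 24 with a filter at a mean of 5 FPKM, which tests fewer genes, and between 42 and 69 under pseudocounts of 0.1 and 0.01, other filters, normalizations and variance settings, library weights, sex and the replicate block. It ran from 33 to 50 when 1 library was left out. Whether the replicate numbers pair the samples is unknown, since the labels give no litters. Deviations of same-numbered libraries correlated at 0.019, 0.305 and -0.241, and those of other KO and control libraries between -0.284 and 0.314. Correlations of so few libraries cannot decide it. With the replicate block 42 genes and 0 members were called. The members' median fold change, -0.04, ran from -0.13 to 0.05 when 1 library was left out, above 0 without KO replicate 2 or control replicate 1, and was 0.05 with library weights or sex. The cause was not tested. No member was called, so a change of sign stays within its spread.

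The signs and ranges of fold changes below cover only the 33 members given in every library. Over all 45 tested members, 16 were above 0 in the main fit. The count was 20 with quantile normalization, 17 with median-of-ratios scaling, 21 with TPM, 27 with library weights and 27 with sex. With quantile normalization, the sign turned for Col1a1 (0.0079), Col1a2 (0.017) and Serpinh1 (0.054). With rescaling to TPM, the sign turned for Col1a2 (0.0074), Col23a1 (0.00012), Serpinh1 (0.0065) and Postn (0.0046). With library weights, the sign turned for Col1a1 (0.030), Col1a2 (0.083), Col27a1 (0.038), Col12a1 (0.24), Lox (0.19), Serpinh1 (0.00067), Postn (0.096) and Fbn1 (0.060). With embryo sex as a covariate, the sign turned for Col1a1 (0.028), Col1a2 (0.087), Col6a1 (0.011), Col12a1 (0.30), Col16a1 (0.0019), Lox (0.14), Postn (0.13) and Fbn1 (0.097). With 1 library left out, fold changes ran for Col4a1 from -0.013 to 0.12, Fbn2 from -0.086 to 0.25, Col1a1 from -0.23 to 0.028, Col1a2 from -0.15 to 0.087, Col6a1 from -0.14 to 0.011, Col12a1 from -0.25 to 0.30, Col16a1 from -0.27 to 0.0019, Lox from -0.18 to 0.14, Postn from -0.17 to 0.13, Fbn1 from -0.21 to 0.097, Col5a3 from -0.020 to 0.21, Col24a1 from -0.32 to 0.047, Col23a1 from -0.068 to 0.0036, Serpinh1 from -0.095 to 0.046 and Eln from -0.10 to 0.021. The lowest fold change of any member with all libraries, Col22a1, ran from -0.45 to -0.11, and was -0.16 without KO replicate 1, where Col27a1 stood lower at -0.36. The difference in the share of FPKM ran from -0.09 to 0.12 percentage points with 1 library left out. The log2 difference of the ratio ran from -0.09 to -0.05 for type I, from -0.06 to -0.04 for type IV and from -0.0041 to 0.044 for type VI. Neither a share nor a ratio within a library is moved by median-of-ratios scaling. The share without the 10 highest other genes and the marker lists without KO replicate 2 were chosen after seeing the data. Alternatives that need counts were not run. The number of reads is unknown, so the precision of low genes such as Col4a6 and Col5a3 cannot be stated beyond the spread of 3 libraries.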
